A study of Mus musculus with 15 samples.

Results

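Glutamine and proline are linked through glutamate, and 8 genes of that pathway are described here in 3T3-L1 cells, a mouse fibroblast line that turns into adipocytes in culture. They are Glul, Slc1a5, Glud1, Got1, Aldh18a1, Pycr1, Prodh and Aldh4a1, and they make up 8 of the 25700 genes in the count files. All 8 were found by symbol, and all 8 were among the 12279 genes that passed the filter on low counts. The genes were chosen by their place in the pathway with their levels across the 5 groups in view. Glul, Slc1a5 and Aldh4a1 were picked because their levels were among the clearest to change, so their values are a description and carry no test. The other 5 were named by pathway, and for them the adjusted p-value of the fit over all genes is given as well. The levels were in view for these 5 too, so their p-values describe the fit and are no independent support.

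The study asked how the transcriptome changes during adipocyte differentiation in wild-type (WT) cells and in cells depleted of MIGA2, an outer mitochondrial membrane protein. Confluent cells received dexamethasone, IBMX and insulin at day 0, and insulin alone followed for part of the course to day 6. The 5 groups had 3 libraries each: WT at day 0, WT at day 6, MIGA2-KO (MIGA2 depleted) at day 0, MIGA2-KO at day 6, and differentiated cells with overexpressed MIGA2-GFP, a fusion to a fluorescent protein, at day 6. The labels say neither how the protein was depleted, nor which cells received MIGA2-GFP, nor whether a line is 1 clone or the libraries are separate cultures. MIGA2-GFP has no day 0 group.

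Several facts of the libraries bear on every value that follows. Totals ran from 10748668 to 26003871 counts per library. Replicate 1 of WT day 0, of WT day 6 and of MIGA2-KO day 6 each stood apart from the rest of its group, so results were also computed without these 3 libraries. They were picked for their deviation in these same data, so leaving them out lowers the estimated spread. Calls gained without them are therefore no independent check. Miga2 RNA stood at 925.7 CPM (counts scaled to a library size adjusted by TMM, the trimmed mean of M-values) in the library labelled MIGA2-KO day 6 replicate 1, at 74.48 and 70.02 in the other MIGA2-KO day 6 libraries, and at 145.2 to 181.8 in WT day 6, so that library goes against its label. At day 0 Miga2 was not lower in MIGA2-KO (17.17 to 22.55 CPM) than in WT (13.63 to 17.75 CPM), and MIGA2-GFP libraries (155.4 to 165.6 CPM) did not stand above WT day 6. The summed level of 10 adipocyte markers ran from 686.5 to 811.2 CPM in WT day 0 and from 1154 to 1186 CPM in MIGA2-KO day 0. These day 0 sums rest on few markers: 3 of the 10 had no count in either line, and 4 in WT and 3 in MIGA2-KO were over 1 CPM. At day 6 the sum ran from 41710 to 54150 CPM in WT, from 9382 to 15770 CPM in MIGA2-KO and from 29330 to 31100 CPM in MIGA2-GFP, and all 10 markers were over 1 CPM in each day 6 group. The sum of 8 preadipocyte and fibroblast markers went the other way, from 5087 to 5515 CPM in WT day 6 against 11800 to 19640 CPM in MIGA2-KO day 6 and 7144 to 7458 CPM in MIGA2-GFP. In such bulk RNA, fewer cells of a type and less RNA per cell cannot be told apart, and the part of marker levels in the results below was not tested. Macrophage markers summed to at most 25.47 CPM with Ptprc without a count in all 15 libraries, endothelial markers to at most 1.221 CPM, and epithelial markers to at most 14.75 CPM with Epcam and Cdh1 without a count. Skeletal muscle markers stayed at or under 1.36 CPM except in MIGA2-KO day 6 replicate 3, at 38.8 CPM.

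Glutamine enters the cell through carriers such as SLC1A5 and is made inside it by glutamine synthetase (GLUL) from glutamate and ammonia. Glutamate dehydrogenase (GLUD1) turns glutamate into the TCA cycle intermediate alpha-ketoglutarate in mitochondria, and the cytosolic aspartate aminotransferase GOT1 exchanges the amino group between glutamate and aspartate. Proline is made from glutamate by ALDH18A1 and then PYCR1, and is broken down to glutamate by PRODH and then ALDH4A1, all in mitochondria, so synthesis and breakdown meet at the same intermediate, pyrroline-5-carboxylate. Adipose tissue is a known source of circulating glutamine, and glutamine synthetase has long been known to increase as 3T3-L1 cells become adipocytes.

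Promoter windows, from 250 bases before to 50 bases after the start of the gene, were taken from RefSeq (GRCm38.p6) for 7 of the 8 genes. The RefSeq start of Prodh lies 1013 bases inside the gene as GENCODE gives it, so its window is not that of the GENCODE start; for the other 6 the 2 starts were at most 28 bases apart. Those of 4 genes are shown because they belong to genes that move in opposite directions below: Pycr1, Got1 and Aldh18a1, which fell, and Prodh, which rose. Capitals mark matches to 3 motifs, searched on both strands. The first, TGATGNAA, is the amino acid response element bound by ATF4 with a C/EBP protein. The second, TTGCGCAA, is the C/EBP palindrome, and the third, CACGTG, is an E-box. None of the 3 overlaps another in these windows. All 4 genes lie on the minus strand, and the windows are written 5′ to 3′ along the gene.
Pycr1, chr11:120643699-120643998: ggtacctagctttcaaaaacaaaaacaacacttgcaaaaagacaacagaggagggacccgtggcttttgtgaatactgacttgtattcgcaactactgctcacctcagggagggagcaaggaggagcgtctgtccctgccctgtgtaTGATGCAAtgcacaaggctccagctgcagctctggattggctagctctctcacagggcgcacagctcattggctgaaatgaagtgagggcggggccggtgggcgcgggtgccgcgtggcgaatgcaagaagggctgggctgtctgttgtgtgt
Got1, chr19:43524556-43524855: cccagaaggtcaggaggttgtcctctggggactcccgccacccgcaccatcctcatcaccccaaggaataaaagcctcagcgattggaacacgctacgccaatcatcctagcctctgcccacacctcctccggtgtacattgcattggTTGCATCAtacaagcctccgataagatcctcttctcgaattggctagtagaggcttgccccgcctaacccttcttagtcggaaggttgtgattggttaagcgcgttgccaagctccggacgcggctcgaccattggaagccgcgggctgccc
Aldh18a1, chr19:40588414-40588713: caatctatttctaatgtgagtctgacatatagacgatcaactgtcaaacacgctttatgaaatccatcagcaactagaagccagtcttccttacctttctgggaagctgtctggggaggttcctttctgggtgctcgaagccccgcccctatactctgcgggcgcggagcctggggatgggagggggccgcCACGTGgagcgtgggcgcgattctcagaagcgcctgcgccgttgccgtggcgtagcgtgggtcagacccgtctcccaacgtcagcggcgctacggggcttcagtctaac
Prodh, chr16:18089141-18089440: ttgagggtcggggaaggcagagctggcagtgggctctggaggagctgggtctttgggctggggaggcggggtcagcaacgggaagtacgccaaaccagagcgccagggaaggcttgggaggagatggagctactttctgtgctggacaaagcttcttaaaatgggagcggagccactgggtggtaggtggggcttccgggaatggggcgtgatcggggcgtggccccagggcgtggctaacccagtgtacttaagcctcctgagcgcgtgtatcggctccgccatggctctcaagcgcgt
The Pycr1 window held TGATGCAA from 103 to 96 bases before the start. Got1 held the same element on the other strand, read as TTGCATCA from 102 to 95 bases before the start. Aldh18a1 held CACGTG from 59 to 54 bases before the start. The windows of Prodh, Glul, Glud1 and Aldh4a1 held no match. Among 32544 such windows of all genes, 3.91% held TGATGNAA, 0.184% held TTGCGCAA and 7.17% held CACGTG. A match describes the letters of the window and is not shown here to be a bound site.

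Glul, at chromosome 1, 153899944 to 153909723 (ENSMUSG00000026473, GRCm38, plus strand), had the highest level per length of the 8 genes in all 3 day 6 groups. At day 0 its level was 25.13, 29.27 and 30.99 CPM in WT and 29.29, 29.29 and 31.55 CPM in MIGA2-KO. At day 6 it was 2333, 2045 and 2022 CPM in WT, 910.1, 1284 and 1257 CPM in MIGA2-KO, and 1241, 1227 and 1218 CPM in MIGA2-GFP. The day 0 groups overlapped, and every WT day 6 library lay above every library of the other day 6 groups. WT cells at day 6 thus held 75.0 times the mean of day 0 (log2 fold change 6.23 ± 0.16, SE), and MIGA2-KO cells 38.3 times theirs (5.26 ± 0.15). MIGA2-KO at day 6 stood at 53.9% of WT (log2 fold change -0.89 ± 0.13) and MIGA2-GFP at 57.6% (-0.80 ± 0.13), and the MIGA2-GFP libraries lay inside the MIGA2-KO range. Per kb of exon, Glul reached 642 ± 52.1 CPM (SD, n = 3) in WT day 6, at the 99.3rd percentile of all genes tested, from the 64.4th percentile at day 0. Glul shares 116 bp of exon with Teddm2 on the opposite strand, which was at most 4.17 CPM.

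Slc1a5, the plasma membrane carrier of glutamine and other neutral amino acids, lies at chromosome 7, 16781340 to 16798274 (ENSMUSG00000001918, plus strand). It was the one of the 3 picked genes that already stood higher in MIGA2-KO at day 0, with 120.2, 114.7 and 118.6 CPM against 69.74, 65.01 and 56.88 CPM in WT (log2 fold change 0.88 ± 0.11). At day 6 the order was turned: WT had 1372, 1572 and 1754 CPM, MIGA2-KO 425.1, 410.1 and 388.0 CPM, and MIGA2-GFP 1219, 1177 and 1174 CPM. These 3 groups did not overlap, with MIGA2-KO lowest and WT highest. The day 6 mean was 24.5 times that of day 0 in WT (log2 fold change 4.62 ± 0.12) and 3.46 times in MIGA2-KO (1.79 ± 0.11). MIGA2-KO at day 6 stood at 26.0% of WT (-1.94 ± 0.11), while MIGA2-GFP stood at 76.0% (-0.40 ± 0.10). The carrier and the synthase therefore had different ratios at day 6. Glul over Slc1a5, each per kb of exon, ran from 1.45 to 2.13 in WT, from 2.69 to 4.07 in MIGA2-KO and from 1.28 to 1.31 in MIGA2-GFP.

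Glud1, at chromosome 14, 34310727 to 34345265 (ENSMUSG00000021794, plus strand), rose over time in both lines, and less in MIGA2-KO. Its level at day 0 was 180.2, 178.2 and 193.5 CPM in WT and 198.1, 203.4 and 193.4 CPM in MIGA2-KO. The day 6 levels were 1449, 1387 and 1387 CPM in WT, 328.6, 406.1 and 423.3 CPM in MIGA2-KO, and 658.4, 678.6 and 668.5 CPM in MIGA2-GFP. The day 6 groups were separate, in the order MIGA2-KO, MIGA2-GFP, WT. In edgeR's quasi-likelihood test the change over time was 2.94 ± 0.10 on the log2 scale in WT (adjusted p = 7.48e-12) and 0.96 ± 0.097 in MIGA2-KO (adjusted p = 1.44e-06). The difference between these changes was -1.97 ± 0.14 (adjusted p = 2.97e-07). At day 6 Glud1 in MIGA2-KO was 27.4% of WT (log2 fold change -1.87 ± 0.099, adjusted p = 7.25e-09) and in MIGA2-GFP 47.5% (-1.07 ± 0.097, adjusted p = 5.87e-06). At day 0 the lines differed by 0.11 ± 0.097, which did not pass (adjusted p = 0.405).

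Got1, at chromosome 19, 43499752 to 43524605 (ENSMUSG00000025190, minus strand), fell with differentiation. Its level was 90.45, 73.45 and 77.26 CPM in WT day 0 and 58.82, 52.53 and 55.63 CPM in MIGA2-KO day 0, so the lines were separate before differentiation (log2 fold change -0.53 ± 0.11, edgeR adjusted p = 0.00269). At day 6 the groups overlapped, with 35.26, 43.18 and 36.4 CPM in WT, 41.21, 35.59 and 35.01 CPM in MIGA2-KO, and 36.72, 37.79 and 35.23 CPM in MIGA2-GFP. The fall over time was -1.07 ± 0.11 in WT (adjusted p = 1.04e-06) and -0.58 ± 0.11 in MIGA2-KO (adjusted p = 0.000773). MIGA2-KO differed from WT at day 6 by -0.04 ± 0.11, which did not pass (adjusted p = 0.787). With offsets for GC content and transcript length that day 6 value turned to 0.41 and passed (adjusted p = 0.000596), and the day 0 value was -0.29 (adjusted p = 0.00908). Its change over time differed between MIGA2-KO and WT by 0.49 ± 0.16 (adjusted p = 0.0341), a call that was lost without the 3 libraries that stood apart (0.28, adjusted p = 0.0569). The call was also lost when any MIGA2-KO day 0 library, MIGA2-KO day 6 replicate 1, or WT day 6 replicate 1 or 3 was left out, with values of 0.42 to 0.53 and adjusted p of 0.05 to 0.0879.

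**Figure D1:**
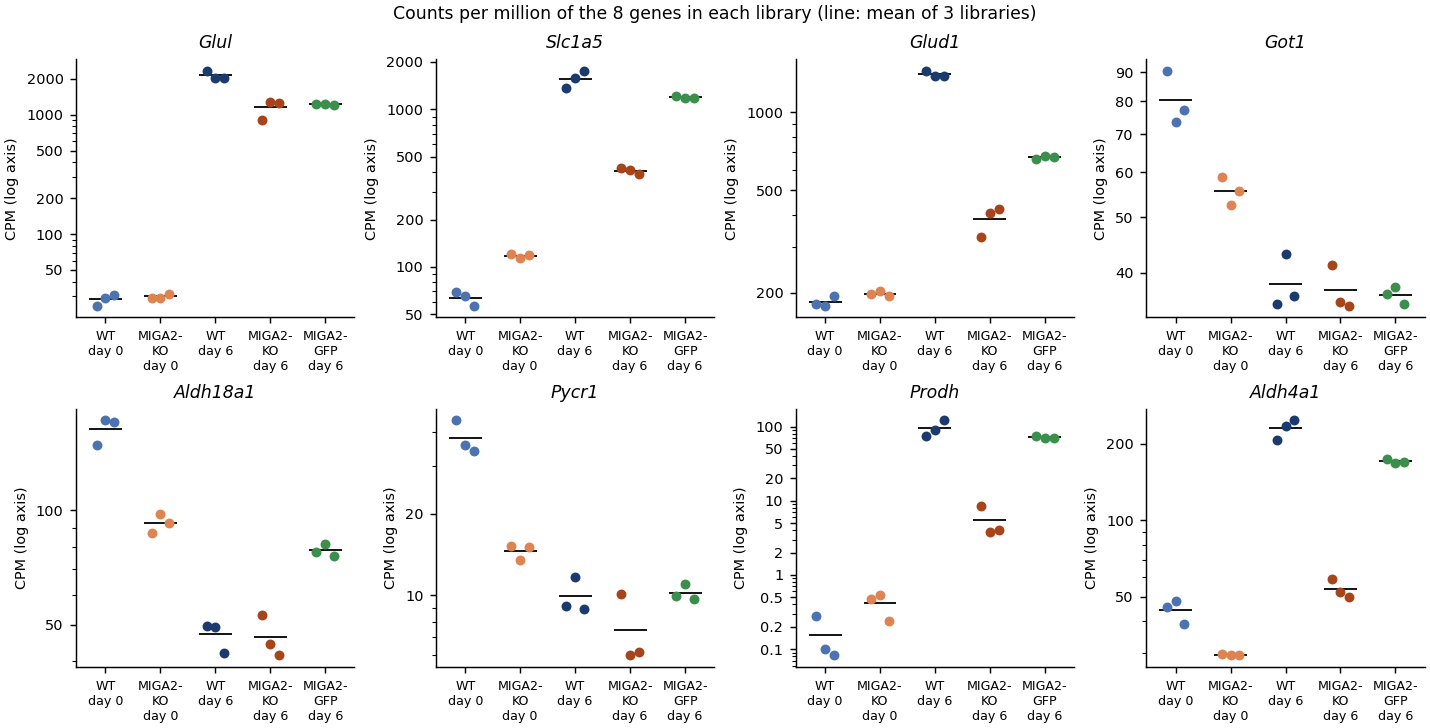
Level of each of the 8 genes in each library, in CPM on a log axis, by group; points are the 3 libraries of a group and the line is their mean. Glul, Slc1a5, Glud1, Prodh and Aldh4a1 are highest in WT day 6, while Aldh18a1, Pycr1 and Got1 are highest in WT day 0.

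Aldh18a1, which starts proline synthesis from glutamate, lies at chromosome 19, 40550257 to 40588463 (ENSMUSG00000025007, minus strand). Its level at day 0 was 148.2, 172.3 and 170.9 CPM in WT and 87.07, 97.64 and 92.37 CPM in MIGA2-KO. The day 6 levels were 49.64, 49.42 and 42.22 CPM in WT, 52.86, 44.41 and 41.54 CPM in MIGA2-KO, and 77.71, 81.53 and 75.88 CPM in MIGA2-GFP. WT and MIGA2-KO overlapped at day 6, and every MIGA2-GFP library lay above both. Aldh18a1 fell over time in WT (log2 fold change -1.80 ± 0.11, edgeR adjusted p = 3.06e-09) and in MIGA2-KO (-1.0 ± 0.11, adjusted p = 3.58e-06), and was lower in MIGA2-KO than in WT at day 0 (-0.83 ± 0.11, adjusted p = 8.84e-05). The 2 changes over time differed by 0.80 ± 0.15 (adjusted p = 0.00161). At day 6 the MIGA2-KO level was 98.3% of WT (-0.03 ± 0.11, adjusted p = 0.854, not passed). MIGA2-GFP stood at 166% of WT (0.73 ± 0.11, adjusted p = 0.000264), which made Aldh18a1 the single one of the 5 pathway-named genes that was called higher in MIGA2-GFP than in WT.

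Pycr1, which makes proline from pyrroline-5-carboxylate, lies at chromosome 11, 120635712 to 120643769 (ENSMUSG00000025140, minus strand). It had 44.19, 35.84 and 34.22 CPM in WT day 0 and 15.25, 13.53 and 15.08 CPM in MIGA2-KO day 0, or 38.4% of WT, with no overlap (log2 fold change -1.38 ± 0.18, edgeR adjusted p = 7.5e-05). By day 6 it had 9.133, 11.7 and 8.93 CPM in WT, 10.09, 6.015 and 6.183 CPM in MIGA2-KO, and 9.906, 10.99 and 9.711 CPM in MIGA2-GFP. Within MIGA2-KO day 6 the library labelled replicate 1 lay in the WT range and the other 2 libraries below it. Over time Pycr1 fell by 1.94 on the log2 scale in WT (SE 0.18, adjusted p = 3.24e-07) and by 0.98 in MIGA2-KO (SE 0.19, adjusted p = 0.000706). The 2 changes differed by 0.96 ± 0.26 (adjusted p = 0.0142), and by 0.52 without the 3 libraries that stood apart (adjusted p = 0.0285). MIGA2-KO against WT at day 6 was -0.42 ± 0.19, which did not pass (adjusted p = 0.0772). When the library labelled MIGA2-KO day 6 replicate 1 was left out it was -0.69 and passed (adjusted p = 0.00376). Likewise, MIGA2-GFP against MIGA2-KO was 0.46 ± 0.19 (adjusted p = 0.0626) and became 0.72 without that library (adjusted p = 0.00361). MIGA2-GFP differed from WT by 0.04 ± 0.19 (adjusted p = 0.877, not passed).

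Prodh, proline dehydrogenase, which takes the first step of proline breakdown, lies at chromosome 16, 18060357 to 18090203 (ENSMUSG00000003526, minus strand) and had the widest range of the 8 genes as a ratio. It was close to absent at day 0, with 0.2829, 0.1016 and 0.08285 CPM in WT and 0.4815, 0.5352 and 0.2433 CPM in MIGA2-KO. These levels rest on 11 and 16 counts per group, so day 0 folds are imprecise. At day 6 it had 74.78, 89.87 and 121.3 CPM in WT, 73.95, 70.69 and 70.26 CPM in MIGA2-GFP, and 8.433, 3.79 and 4.093 CPM in MIGA2-KO. Every MIGA2-KO day 6 library lay far below every WT and MIGA2-GFP library of that day. Replicate 1, which carried the high Miga2 level, was the highest of the 3 for Prodh. The same library was the lowest of the 3 for Glul (910.1 CPM) and Glud1 (328.6 CPM). A link to the Miga2 level was not tested. Prodh rose over time by 9.25 ± 0.40 on the log2 scale in WT (edgeR adjusted p = 5.73e-11) and by 3.66 ± 0.43 in MIGA2-KO (adjusted p = 6.56e-06). The difference between these changes was -5.59 ± 0.84 (adjusted p = 0.000219).

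At day 6 Prodh in MIGA2-KO stood at 5.71% of WT (log2 fold change -4.13 ± 0.28, edgeR adjusted p = 4.42e-08). The MIGA2-GFP level was 75.1% of WT (-0.41 ± 0.23, adjusted p = 0.18, not passed). Without the 3 libraries that stood apart that difference was -0.57 and passed (adjusted p = 5.4e-05). MIGA2-GFP exceeded MIGA2-KO by 3.72 ± 0.28 (adjusted p = 2.57e-07). At day 0 MIGA2-KO against WT was 1.46 ± 0.71 and did not pass (adjusted p = 0.124). That day 0 difference passed without the 3 libraries (2.08, adjusted p = 0.0126), without MIGA2-KO day 6 replicate 1 alone (1.47, adjusted p = 0.0497) and in DESeq2 (adjusted p = 0.0409). The Prodh locus overlaps Dgcr6 on the other strand with 0 bp of shared exon. Dgcr6 ran from 121 to 232 CPM in WT day 6, from 58.6 to 67.7 CPM in MIGA2-KO day 6 and from 177 to 185 CPM in MIGA2-GFP, and whether reads were counted by strand is not stated in the sources used here.

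Aldh4a1, which completes proline breakdown by making glutamate from pyrroline-5-carboxylate, lies at chromosome 4, 139622866 to 139649690 (ENSMUSG00000028737, plus strand). At day 0 it had 45.51, 48.31 and 39.19 CPM in WT and 29.85, 29.52 and 29.44 CPM in MIGA2-KO. The day 6 levels were 208, 236 and 247.5 CPM in WT, 58.51, 52.24 and 49.99 CPM in MIGA2-KO, and 174, 168.7 and 169.9 CPM in MIGA2-GFP. All groups compared were separate, and MIGA2-KO was the lowest at both days. The day 6 mean was 5.20 times that of day 0 in WT (log2 fold change 2.38 ± 0.10) and 1.81 times in MIGA2-KO (0.86 ± 0.10). MIGA2-KO stood at 66.8% of WT at day 0 (-0.58 ± 0.10) and at 23.2% at day 6 (-2.10 ± 0.10), and MIGA2-GFP at 74.1% of WT day 6 (-0.43 ± 0.099). Aldh4a1 shares 1595 bp of exon, 32.5% of its length, with Gm21969 on the same strand, so its counts are uncertain. Gm21969 itself ran from 10.0 to 51.4 CPM over all libraries.

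Set side by side per length, the breakdown enzymes went from below to above the synthesis enzymes between day 0 and day 6 of WT. The ratio of Prodh to Pycr1, in CPM per kb of exon, had a mean of 0.00196 in WT day 0 and ran from 3.88 to 6.86 in WT day 6. In MIGA2-KO it had a mean of 0.0147 at day 0 and ran from 0.318 to 0.422 at day 6, so Pycr1 remained the higher of the pair in those libraries. MIGA2-GFP, at 3.25 to 3.77, lay just below the WT day 6 range. For the pyrroline-5-carboxylate enzymes, Aldh4a1 over Aldh18a1 had a mean of 0.226 in WT day 0 and 0.267 in MIGA2-KO day 0. At day 6 it ran from 3.48 to 4.86 in WT, from 0.919 to 0.999 in MIGA2-KO and from 1.72 to 1.86 in MIGA2-GFP. Aldh4a1 shares 32.5% of its exon length with Gm21969 on the same strand, so its counts and this ratio are uncertain. The side of 1 on which the MIGA2-KO values fall is therefore not settled. The day 6 groups did not overlap in either ratio. These ratios are descriptions of the same values and were not tested.

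**Figure D2:**
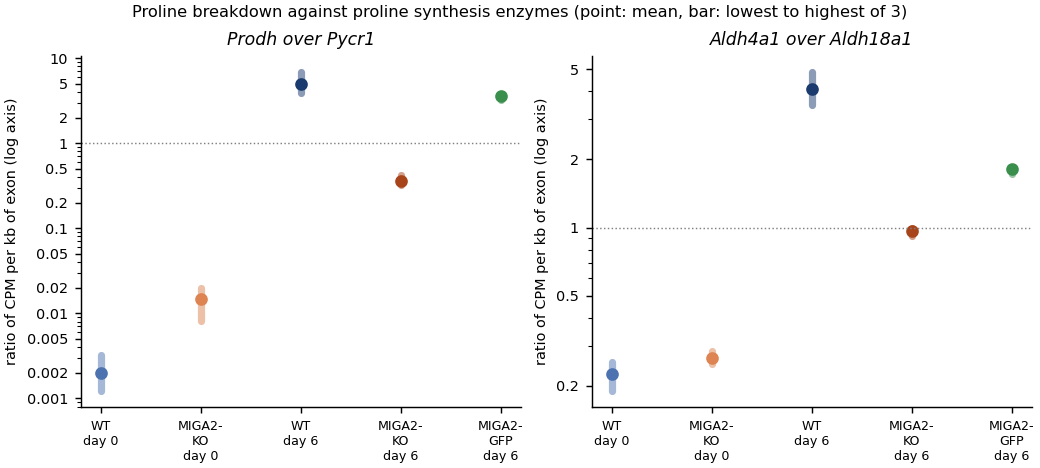
Ratios of proline breakdown to proline synthesis genes per library, as Prodh over Pycr1 and Aldh4a1 over Aldh18a1 in CPM per kb of exon on a log axis, by group; points are means of 3 libraries and bars run from the lowest to the highest. At day 6 the WT and MIGA2-GFP libraries lie above 1 for both ratios. The MIGA2-KO libraries lie below 1 for Prodh over Pycr1 and close to 1 (0.919 to 0.999) for Aldh4a1 over Aldh18a1. Counts of Aldh4a1 are uncertain because it shares exons with Gm21969.

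The order of the 8 genes per kb of exon changed with differentiation. In WT day 0 it ran from Glud1 (43.7 CPM per kb), Aldh18a1 (40.2) and Got1 (31.7) through Slc1a5 (15.3), Pycr1 (9.68), Aldh4a1 (9.04) and Glul (8.57) to Prodh (0.02). The SDs of the first 2, 1.97 and 3.33, and of Pycr1, Aldh4a1 and Glul overlapped, so those neighbours were not apart. In WT day 6 the order of mean CPM per kb was Glul (642), Slc1a5 (375), Glud1 (334), Aldh4a1 (47.0), Got1 (15.1), Prodh (12.2), Aldh18a1 (11.6) and Pycr1 (2.52). Slc1a5 and Glud1 overlapped within their SDs of 45.8 and 8.47, and so did Got1, Prodh and Aldh18a1 as neighbours. In MIGA2-KO day 6 Glul was at 346, Slc1a5 at 97.7 and Glud1 at 91.7 CPM per kb, and Prodh at 0.698 CPM per kb was the lowest. Slc1a5 and Glud1 again overlapped within their SDs. MIGA2-GFP kept the WT order of the 4 highest, with Glul at 370, Slc1a5 at 285, Glud1 at 159 and Aldh4a1 at 34.8 CPM per kb.

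Over the 5 genes named by pathway, the counts called by the edgeR test at an adjusted p of 0.05 stood as follows beside those of all 12279 genes, and nothing is read from them since the genes were chosen with results known. In WT over time 2 were higher and 3 lower, where 64.8% of all genes were called, 31.7% higher and 33.1% lower. In MIGA2-KO over time 2 were higher and 3 lower, where 44.3% of all genes were called, 23.3% higher and 21.0% lower. Between MIGA2-KO and WT at day 0, 3 were lower, where 33.9% of all genes were called, 16.1% higher and 17.7% lower. Of the 5, only Glud1 and Prodh were called between these lines at day 6, both lower, where 60.7% of all genes were called, 29.2% higher and 31.5% lower. MIGA2-GFP against WT gave Aldh18a1 higher and Glud1 lower, where 35.3% of all genes were called, 16.5% higher and 18.9% lower. MIGA2-GFP against MIGA2-KO gave Glud1 (0.79 ± 0.097, adjusted p = 1.78e-05), Aldh18a1 (0.76 ± 0.11, adjusted p = 7.63e-05) and Prodh higher, where 47.9% of all genes were called, 25.4% higher and 22.5% lower. The change over time of all 5 differed between MIGA2-KO and WT, 3 higher and 2 lower, where 27.2% of all genes were called, 13.7% higher and 13.6% lower. The comparisons share groups, so their counts are not independent.

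**Figure D3:**
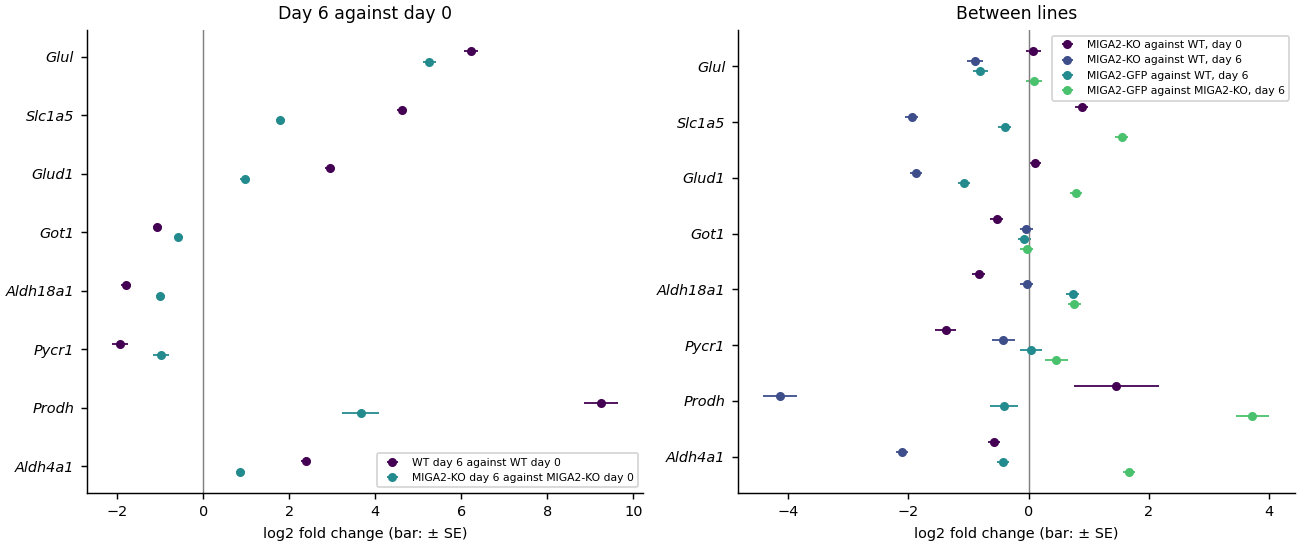
Log2 fold change of each of the 8 genes in 6 comparisons (points, with bars of 1 SE), from the edgeR fit to all 15 libraries. The points of Glul, Slc1a5, Glud1, Prodh and Aldh4a1 lie above 0 for both changes over time and those of Pycr1, Aldh18a1 and Got1 below 0.

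Beyond these 8, 71 other genes of the pathway were sorted into 6 lists, and 57 of them passed the filter on low counts. The lists were chosen with earlier results of these data known, so their counts are a description. The 14 that did not include Gad1, Arg1 and Arg2, and Nags, Prodh2, Slc38a5 and Slc6a20a had no count in all 15 libraries. In WT over time 26 of the 57 rose and 12 fell, 38 in all, where 64.8% of all genes were called, 31.7% higher and 33.1% lower. The median log2 fold change was 0.12 against -0.04 for all genes. Of 6 tested genes of the malate-aspartate shuttle, which carries reducing equivalents into mitochondria, and of the mitochondrial glutamate carriers, 5 rose and 1 fell. Among them were the malate dehydrogenases Mdh1 (2.58 ± 0.12, edgeR adjusted p = 8.74e-11) and Mdh2 (2.08 ± 0.17, adjusted p = 6.89e-08). Of 9 aminotransferases and other users of glutamate 6 rose and 1 fell, led by the alanine aminotransferase Gpt (6.50 ± 0.31, adjusted p = 1.81e-10). Of 13 carriers 5 rose and 4 fell, with the glutamate carrier Slc1a3 up (4.99 ± 0.39, adjusted p = 4.37e-08) and the amino acid carrier Slc38a4 down (-3.87 ± 0.26, adjusted p = 8.71e-09).

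The remaining lists were divided in WT over time. Of 12 genes of enzymes that use glutamine 3 rose and 3 fell, and the NAD synthetase Nadsyn1 was among those that rose (1.18 ± 0.17, edgeR adjusted p = 1.97e-05). Of 8 proline, ornithine and hydroxyproline enzymes 3 rose and 1 fell. The faller was P4ha3, a collagen prolyl hydroxylase subunit (-4.09 ± 0.28, adjusted p = 8.13e-09). Of 9 regulators 4 rose and 2 fell, with Myc up (2.63 ± 0.16, adjusted p = 3.2e-09). In MIGA2-KO over time 18 of the 57 rose and 12 fell, where 44.3% of all genes were called, 23.3% higher and 21.0% lower. The median was 0.10 against 0.02 for all genes. Gpt (4.30 ± 0.31, adjusted p = 4.46e-08) and Mdh1 (1.59 ± 0.11, adjusted p = 3.1e-08) were among those that rose. The balance turned when only the library labelled MIGA2-KO day 6 replicate 1 was left out: 15 rose and 18 fell of 58 tested, and without the 3 libraries that stood apart 25 rose and 23 fell.

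Between MIGA2-KO and WT at day 0, 7 of the 57 were higher and 10 lower, where 33.9% of all genes were called, 16.1% higher and 17.7% lower. The median log2 fold change was -0.12 against -0.03 for all genes. Without the 3 libraries that stood apart 13 were higher and 16 lower. The lower ones included asparagine synthetase Asns (-0.72 ± 0.13, edgeR adjusted p = 0.00108), the serine synthesis aminotransferase Psat1 (-0.92 ± 0.16, adjusted p = 0.000791) and the transcription factor Atf4 (-0.66 ± 0.15, adjusted p = 0.0039). At day 6, 8 were higher and 25 lower, where 60.7% of all genes were called, 29.2% higher and 31.5% lower. The median was -0.16 against -0.01 for all genes. All 6 lists had lower members: 3 of 12 glutamine-using enzymes, 5 of 9 aminotransferases and related genes, 5 of 8 proline enzymes, 5 of 13 carriers, 4 of 6 shuttle genes and 3 of 9 regulators. Both alanine aminotransferases were lower, Gpt at -2.42 ± 0.25 (adjusted p = 2.27e-06) and Gpt2 at -2.24 ± 0.16 (adjusted p = 8.95e-08). So were the exchanger of glutamine for leucine Slc7a5 (-2.20 ± 0.23, adjusted p = 2.14e-06) and Mdh1 (-1.55 ± 0.11, adjusted p = 7.87e-08).

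In MIGA2-GFP against WT, 10 of the 57 were higher and 14 lower, where 35.3% of all genes were called, 16.5% higher and 18.9% lower. The median log2 fold change was -0.06 against 0.00 for all genes. The carrier Slc38a4 was higher (1.52 ± 0.28, edgeR adjusted p = 0.0012). Mdh1 (-0.89 ± 0.11, adjusted p = 6.84e-05) and Myc (-1.28 ± 0.16, adjusted p = 6.72e-05) were lower. Against MIGA2-KO, 21 were higher and 8 lower, where 47.9% of all genes were called, 25.4% higher and 22.5% lower. The median was 0.22 against 0.01 for all genes. The higher ones included Slc7a5 (2.47 ± 0.23, adjusted p = 1.64e-06), Gpt (2.62 ± 0.25, adjusted p = 2.42e-06) and the mitochondrial glutamate carrier Slc25a22 (1.70 ± 0.18, adjusted p = 6.01e-06). The aspartate-glutamate carrier Slc25a13 was lower (-1.86 ± 0.23, adjusted p = 1.75e-05). The change over time differed between the lines for 18 of the 57, being higher in MIGA2-KO for 3 and lower for 15. Of all genes 27.2% were called, 13.7% higher and 13.6% lower. Without the 3 libraries 12 of the pathway genes were higher and 26 lower.

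**Figure D4:**
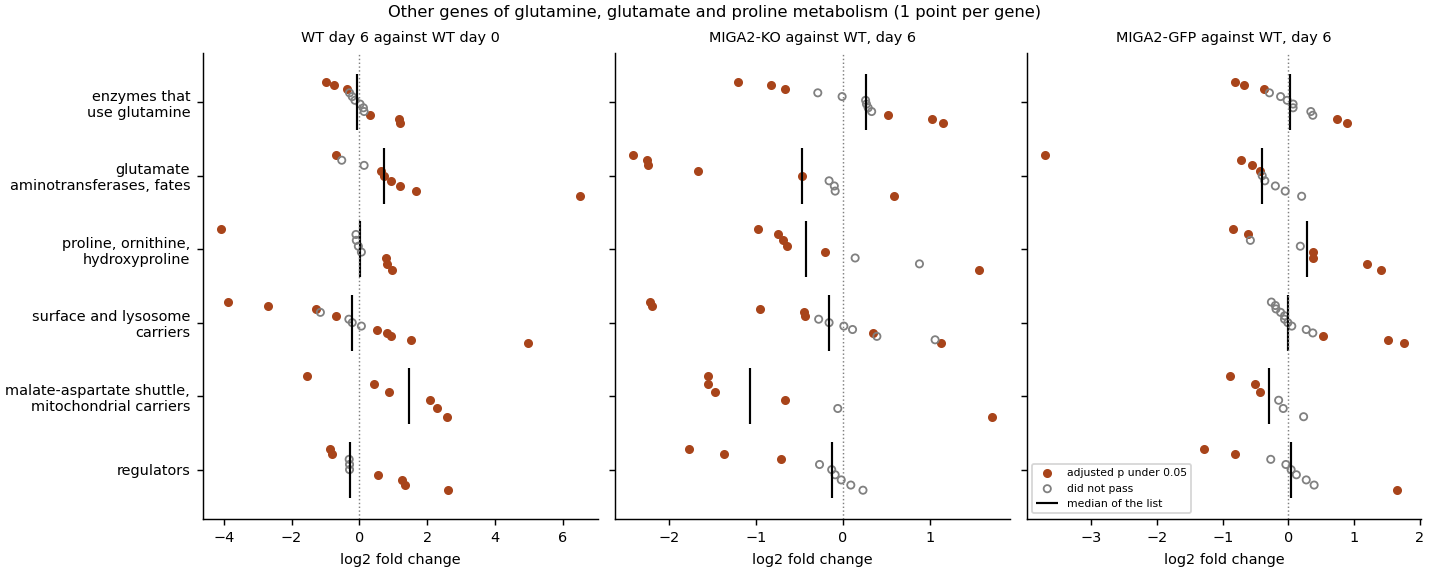
Log2 fold change of the other pathway genes, by list, in 3 comparisons; each point is 1 gene from the edgeR fit, filled where it passed an adjusted p of 0.05, and vertical bars are list medians. The shuttle and mitochondrial carrier list has 5 of 6 genes higher in WT day 6 than day 0, and 4 of 6 lower in MIGA2-KO than in WT at day 6.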

How the data were processed

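RNA from 3T3-L1 cells was made into stranded TruSeq libraries, per the labels' protocols. Each deposited file holds the counts of 1 library, unnormalized, by gene. Per the submitters' processing notes, tools included bcl2fastq 2.19, Trimmomatic, STAR 2.5.4b, featureCounts and edgeR, with genome GRCm38.p5; annotation release and strand setting: not given in the sources used here. Of 25700 identifiers 25664 matched GENCODE vM21 (GRCm38), which gave symbols, positions and exon lengths.

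Counts were fitted in R 4.3.3 with edgeR 4.0.16 (TMM scaling, filterByExpr with minimum count 10 and minimum total 15, quasi-likelihood, 1 term per group, 15 libraries). Tests were two-sided, adjusted by Benjamini-Hochberg over 12279 genes per comparison, threshold 0.05. SEs were derived from the F statistic (size of the log2 fold change over the root of F). CPM are counts scaled by TMM-adjusted library size, not the raw total. The edgeR fit was tested on simulated counts, made with the same spread for a gene in all groups. That test therefore does not cover the unequal spread given below. Totals per library were 10748668 to 26003871 counts. P-values measure the spread between these libraries, which may be technical. That spread was unequal. Chi-square per degree of freedom between pairs of libraries ran from 1.608 to 2.513 in MIGA2-KO day 0 and from 1.629 to 1.771 in MIGA2-GFP. It ran from 2.148 to 30.57 in MIGA2-KO day 6, from 8.114 to 55.09 in WT day 6 and from 16.4 to 103.9 in WT day 0. The fit shares its estimate of spread for a gene over all groups.

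The members and lists were chosen with earlier results of these data known. The text names the 8 genes and, from each list and comparison, some of up to 3 listed genes of smallest adjusted p; for the difference in change over time, Psat1 and Slc25a13 were added after their values were seen, so that all listed genes called are given. Alternatives were DESeq2 1.42.0, other scaling, no filter, only the groups compared, GC and length offsets, a replicate block, and leaving out libraries.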

Additional observations from a re-analysis of the deposited data

Results flagged for a closer look

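The change from day 0 to day 6 differed between MIGA2-KO and WT, by the test of that difference in edgeR, for each gene given here as the MIGA2-KO change minus the WT change on the log2 scale. Among the members named by pathway the difference was -5.59 for Prodh, -1.97 for Glud1, 0.96 for Pycr1, 0.80 for Aldh18a1 and 0.49 for Got1.

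Among other pathway genes it was negative for 15 and positive for 3, where 13.6% of all genes were called lower and 13.7% higher. The CTP synthases Ctps2 and Ctps were at -1.18 and -1.07, and the aminotransferases Gpt, Gpt2, Abat and Psat1 at -2.20, -1.26, -3.19 and -0.75. The value of Abat is imprecise (SE 0.75), as it rests on 27 counts in WT day 6 and 6 counts in MIGA2-KO day 6. The collagen prolyl hydroxylase subunit P4ha2 was at -0.98 and the peptidase Pepd at -0.82. The carriers Slc7a5, Slc38a2 and Slc25a22 were at -1.46, -1.01 and -1.43, and the malate dehydrogenases Mdh2 and Mdh1 at -1.54 and -0.99. Myc was at -1.28 and the mitochondrial deacylase Sirt3 at -0.74. It was positive for the aspartate-glutamate carrier Slc25a13 (1.19), for Ppat (0.72), the first enzyme of purine synthesis, and for the lysosomal carrier Slc38a7 (0.41).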

How the results depend on the processing

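Of 1287 member values over 23 alternatives, 1224 kept their direction together with their side of the threshold or, for the 3 genes with no test, a value within 1 SD of the spread between replicates, and 50 of 56 member results never changed sign. Signs here are those of rounded values. Glul in MIGA2-KO against WT at day 0 (0.08) ran from -0 to 0.14 when 1 library was left out. It thus reached just under 0 before rounding, which is not counted as a change. Without the 3 libraries that stand apart, pathway genes called went from 30 to 48 for MIGA2-KO over time, from 17 to 29 for MIGA2-KO against WT at day 0 and from 18 to 38 for the difference in change over time; all genes called went from 4338 to 7625 for MIGA2-GFP against WT and from 3346 to 7655 for the difference in change over time. GC and length offsets gave 26 pathway genes for MIGA2-KO against WT at day 0. Leaving out 1 library gave 11 (without MIGA2-KO day 0 replicate 2) to 22 there, 2759 (without WT day 6 replicate 2) to 5438 genes for MIGA2-GFP against WT, and 2541 to 5186 (without WT day 0 replicate 1) for the difference in change over time. Sign changes were as follows. For Aldh18a1, MIGA2-KO against WT at day 6 (-0.03) became 0.07 with GC and length offsets and 0.08 with these and the replicate block, and ran from -0.12 to 0.06 when 1 library was left out. For Got1 the same value (-0.04) became 0.41 with the offsets, with or without the block (adjusted p = 0.00154 with it), and ran from -0.11 to 0.07 when 1 library was left out. In MIGA2-GFP against WT, Got1 (-0.07) became 0.19 with the offsets, with or without the block, and Pycr1 (0.04) became -0.02 without the 3 libraries. Leaving out 1 library moved them from -0.14 to 0.01 and from -0.04 to 0.16. In MIGA2-GFP against MIGA2-KO, Glul (0.09) became -0.07 and Got1 (-0.03) became 0.03 without MIGA2-KO day 6 replicate 1 or the 3 libraries, with ranges of -0.07 to 0.15 and -0.10 to 0.03 when 1 library was left out. Got1 there passed with the offsets (-0.22, adjusted p = 0.033). Pycr1 there passed also without WT day 0 replicate 1 (0.46, adjusted p = 0.0445). The cause of these changes was not tested.

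Replicate numbers did not pair the libraries: deviations of same-number libraries correlated at -0.723 to 0.125, and 5 of 15 libraries correlated best with their own number. The replicate block gave 7578, 5033, 3505, 7078, 3733, 5468 and 2790 genes called, and 37, 28, 15, 32, 23, 28 and 16 pathway genes, in the order WT over time, MIGA2-KO over time, MIGA2-KO against WT at day 0 and day 6, MIGA2-GFP against WT, MIGA2-GFP against MIGA2-KO, and the difference in change over time. Of member calls it ended only that of Got1 in the last of these (0.49, adjusted p = 0.0527), which was also lost with no filter (adjusted p = 0.0533) and with only the groups compared (adjusted p = 0.0673). Prodh at day 0 is limited by depth, at 11 and 16 counts per group.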
